A study of Mus musculus with 6 samples.

Results

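Interferon response genes are the genes that cells switch on when interferon, the antiviral signalling protein, binds its receptor. The 35 described here were chosen by symbol from a list of sensors, transcription factors and antiviral proteins, and all 35 were found among the 34542 genes of the deposited gene count table. They were followed in polyadenylated RNA from fetal liver of C57BL/6J mouse embryos, a tissue that makes red blood cells before birth. The 2 groups were 3 libraries from embryos without the microRNA locus miR-144/451 (genotype miR-144/451-/-, here KO) and 3 from wild-type embryos (WT). KO libraries carry the numbers 4 to 6 and WT libraries 1 to 3, and each RNA preparation used an equal number of cells. The labels give no embryo age or sex and do not say whether a library is 1 embryo or a pool. The p-values here reflect no more than the spread among the libraries, part of which may be technical.

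Type I interferons bind the receptor chains Ifnar1 and Ifnar2, and the kinases Jak1 and Tyk2 then phosphorylate transcription factors such as Stat2. With Irf9 these form a complex that binds the interferon-stimulated response element (ISRE) in the promoters of its target genes. Interferon gamma acts through Jak1 and Jak2, and its signal reaches promoters at the gamma-activated site (GAS). Target genes block viral RNA and protein synthesis, and some of the encoded proteins, such as Usp18, damp the pathway again. Many are also transcribed at a low level without infection. The miR-144/451 locus encodes microRNAs that are abundant in red cell precursors.

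The label check came first. Mir144 had 1, 1 and 0 counts in KO libraries 4, 5 and 6, against 51, 47 and 29 counts in WT libraries 1, 2 and 3. Mir451 had 3, 2 and 4 counts in KO and 323, 446 and 418 in WT. Both sets of labels therefore match the genotype. The gene table held 24659978 to 44700229 counts per library. Levels below are CPM, that is, counts relative to each library's size after scaling with edgeR's TMM method. Genes of the fetal liver's main cells were present: the summed level of 10 erythroblast markers, led by Slc4a1 and Tfrc, was 16460 to 19370 CPM in KO and 21840 to 30030 CPM in WT. Hepatocyte markers, led by Alb and Afp, varied within both groups, at 13800, 21580 and 48970 CPM in KO 4, 5 and 6 and at 15950, 60060 and 9410 CPM in WT 1, 2 and 3. KO 6 and WT 2 therefore stand apart from the other libraries of their groups by hepatocyte RNA, and results are given without them where that matters.

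Promoters of 5 members are printed because they belong to the genes the results turn on (Isg20, Isg15, Rsad2 and Igtp) and to a gene that has 2 separate ISRE matches (Ifit1). Each runs 5′ to 3′ on the gene's strand, from 250 bases before to 50 bases after the transcription start, from RefSeq on build GRCm38.p6. Capitals mark matches to GAAANNGAAA (ISRE) or TTCNNNGAA (GAS), searched on both strands.
Isg20, chr7:78913174-78913473, plus strand: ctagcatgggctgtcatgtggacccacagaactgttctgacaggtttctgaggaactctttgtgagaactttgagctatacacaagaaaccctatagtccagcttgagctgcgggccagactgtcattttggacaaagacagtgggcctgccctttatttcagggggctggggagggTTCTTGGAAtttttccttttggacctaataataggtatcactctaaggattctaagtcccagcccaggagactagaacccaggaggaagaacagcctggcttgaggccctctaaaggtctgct
Isg15, chr4:156200769-156201068, minus strand: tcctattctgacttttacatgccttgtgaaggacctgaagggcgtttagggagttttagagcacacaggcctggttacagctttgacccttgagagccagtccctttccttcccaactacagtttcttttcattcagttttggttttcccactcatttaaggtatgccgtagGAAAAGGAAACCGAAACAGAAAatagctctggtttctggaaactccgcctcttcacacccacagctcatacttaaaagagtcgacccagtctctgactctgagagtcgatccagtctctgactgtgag
Rsad2, chr12:26456403-26456702, minus strand: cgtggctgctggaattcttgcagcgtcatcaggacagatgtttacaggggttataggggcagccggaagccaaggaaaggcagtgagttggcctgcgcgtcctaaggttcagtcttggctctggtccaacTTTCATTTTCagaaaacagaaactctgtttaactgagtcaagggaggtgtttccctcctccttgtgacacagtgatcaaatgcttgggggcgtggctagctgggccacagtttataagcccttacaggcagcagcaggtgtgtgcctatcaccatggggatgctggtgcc
Igtp, chr11:58199306-58199605, plus strand: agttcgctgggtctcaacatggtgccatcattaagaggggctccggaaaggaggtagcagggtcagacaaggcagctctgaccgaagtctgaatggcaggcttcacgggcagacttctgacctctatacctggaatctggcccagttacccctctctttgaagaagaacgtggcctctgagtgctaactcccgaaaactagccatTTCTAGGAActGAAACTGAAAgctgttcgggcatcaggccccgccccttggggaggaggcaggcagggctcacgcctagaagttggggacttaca
Ifit1, chr19:34640639-34640938, plus strand: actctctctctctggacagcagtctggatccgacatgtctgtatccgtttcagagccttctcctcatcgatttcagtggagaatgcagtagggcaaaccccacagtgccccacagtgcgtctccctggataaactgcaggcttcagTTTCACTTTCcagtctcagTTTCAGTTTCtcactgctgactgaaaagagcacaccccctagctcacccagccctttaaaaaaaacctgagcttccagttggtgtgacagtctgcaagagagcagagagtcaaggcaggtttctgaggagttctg
The Isg15 promoter holds 3 ISRE matches that overlap in 1 run, beginning 78, 72 and 66 bases before the start. Ifit1 has ISRE matches beginning 104 and 85 bases before its start, and Rsad2 has 1 beginning 120 bases before. Igtp holds an ISRE match 34 bases and a GAS match 45 bases before its start. RefSeq lists 3 promoters for Isg20, and the printed one was chosen because it holds a match: no ISRE, but a GAS match 73 bases before its start. The other 2 hold neither motif. Promoters were given for 29 of the 35 members, and 15 of these 29 (51.7%) hold an ISRE match in at least 1 promoter, against 3.99% of 27025 genes with a listed promoter. A GAS match was found for 11 of the 29 (37.9%), against 9.55% of the 27025 genes. These are matches of letters in a window, not shown binding sites.

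For 20 of the 34 tested genes the fitted difference between KO and WT fetal liver was within 0.2 on the log2 scale, and a few antiviral genes were lower in KO. Standard errors of these 20 ran from 0.07 (Irf3) to 0.44 (Ddx58), so larger differences are not excluded for some of them. Isg20, an exonuclease that degrades viral RNA, fell to 39.3% of its WT level and was the 1 member that passed the test. Isg15, Rsad2, Igtp, Irf9 and Adar were also lower in every KO library than in any WT library, without passing. Xaf1 and Irf3 were higher in every KO library than in any WT library, and neither passed. Of the 35 members, 34 had enough counts to be tested, and Ifi44 did not.

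The test was edgeR's quasi-likelihood test over 15105 genes, called at a Benjamini-Hochberg adjusted p under 0.05. It called 1 of 34 members lower in KO, where 1.45% of all tested genes were called lower. It called 0 members higher, where 1.83% of all tested genes were. At an unadjusted p under 0.05, 6 members were lower, against 8.78% of all tested genes, and 1 member (Xaf1) was higher, against 7.77%. The libraries did not overlap, with KO lower, for the same 6 members, against 10.9% of all tested genes. They did not overlap, with KO higher, for 2 members, against 11.8%. DESeq2 called 5 members lower (Isg15, Isg20, Rsad2, Igtp and Adar) of 33 that it gave an adjusted p, against 3.53% of all genes, and 0 higher, against 3.83%. The fitted log2 change, KO over WT, was below 0 for 23 of the 34 members and above 0 for 11. It lay within 0.2 of 0 for 20 of them, 13 below and 7 above. The median log2 change was -0.08 over the members and -0.03 over all tested genes.

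**Figure D1:**
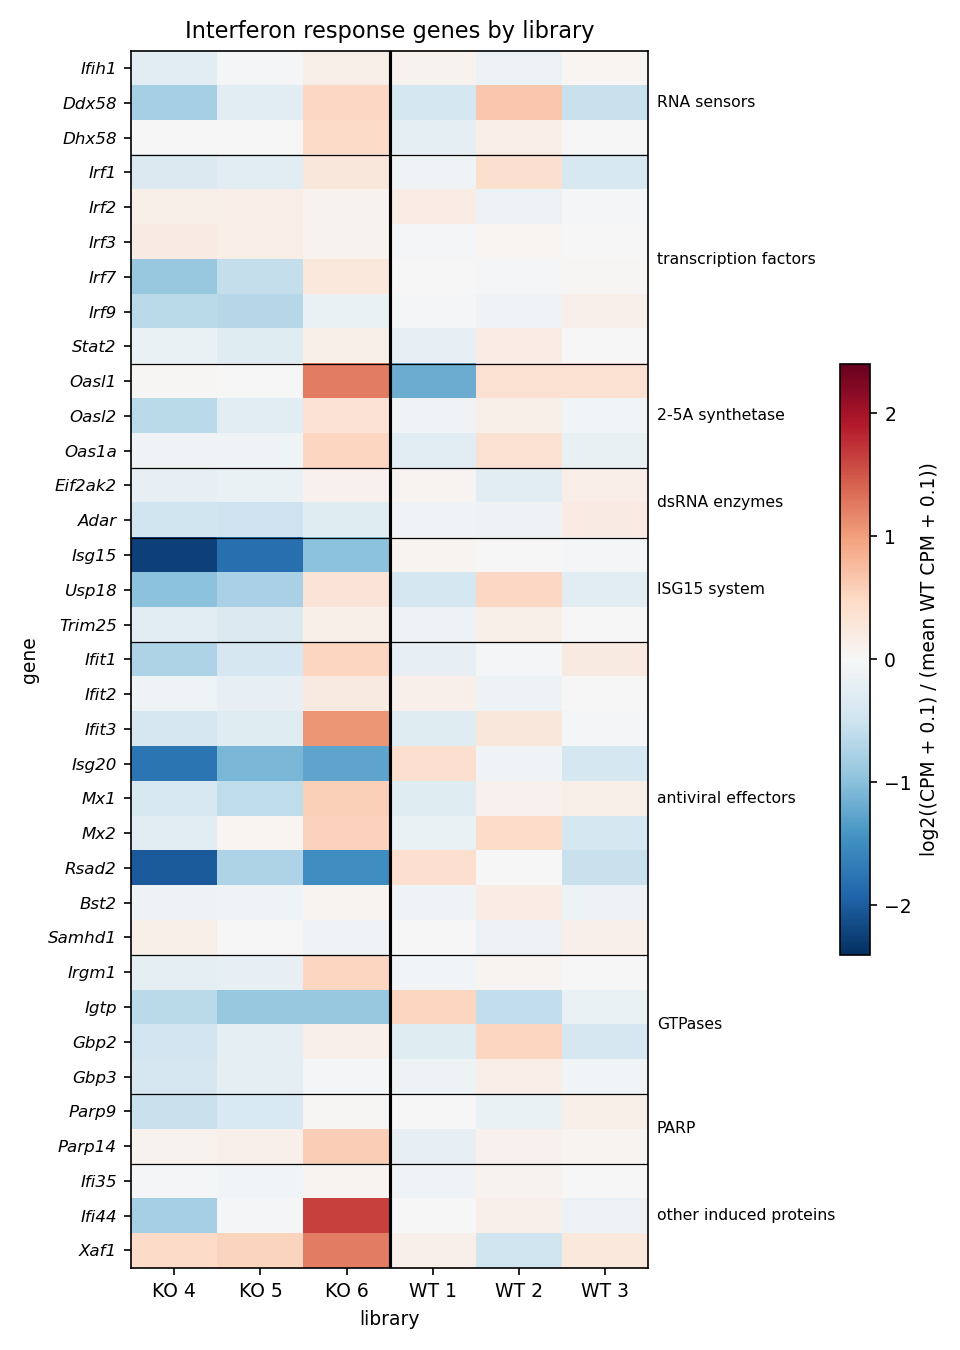
Level of the 35 genes (rows, grouped by role) in the KO libraries 4 to 6 and the WT libraries 1 to 3 (columns), as log2 of CPM plus 0.1 over the mean WT CPM plus 0.1; red is above and blue below the WT mean. Isg15, Isg20 and Rsad2 are blue in every KO library, while in KO 6 many weakly expressed genes such as Ifit3, Oasl1 and Ifi44 are red.

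Among the antiviral effectors, Isg20 had 34.1, 53.9 and 47.9 CPM in KO 4, 5 and 6, against 152, 108 and 85.7 CPM in WT 1, 2 and 3. All 3 KO libraries lay below the lowest WT library, and WT 1 was the highest of the 6. The mean was 45.3 ± 10.2 CPM in KO and 115 ± 33.7 CPM in WT (SD, n = 3 each). The log2 change was -1.35 ± 0.25 (SE), with an adjusted p of 0.0465 in edgeR's quasi-likelihood test. The call was close to the threshold: leaving out any 1 library except WT 2 ended it, with adjusted p between 0.0898 and 0.139 in edgeR, while the log2 change stayed between -1.52 and -1.10. Isg20 lies at chr7:78913424-78920396 on build GRCm38, and no exon of another gene overlaps its exons there.

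Rsad2 encodes viperin, an enzyme that makes a nucleotide which stops viral RNA polymerases. It had 51.5, 125 and 74.2 CPM in KO 4, 5 and 6, against 273, 205 and 144 CPM in WT 1, 2 and 3. The groups did not overlap, although KO 5 came near WT 3. The mean was 83.5 ± 37.6 CPM in KO and 208 ± 64.7 CPM in WT (SD, n = 3 each), which is 40.2% of the WT level. The log2 change of -1.31 ± 0.37 (SE) did not pass in edgeR (adjusted p 0.135), and DESeq2 gave an adjusted p of 0.00181. In KO, Rsad2 and Isg20 were lowest in library 4 and highest in library 5, and in WT both were highest in library 1 and lowest in library 3. The summed level of 10 neutrophil markers, led by S100a9 and Mpo, kept the same order in both groups, with 1426, 3084 and 2031 CPM in KO 4, 5 and 6 and 4055, 3248 and 2295 CPM in WT 1, 2 and 3. Unlike Rsad2 and Isg20, these sums overlapped between the groups, with KO 5 above WT 3, and 0 of the 10 markers were lower without overlap. All 10 neutrophil markers had a log2 change below 0, none of them passed the test in edgeR, and their part in the results for Rsad2 and Isg20 was not tested. In bulk tissue, fewer cells of a type and less RNA per cell cannot be told apart.

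Isg15 encodes a small protein that is attached to other proteins in the way ubiquitin is. It had 1.92, 2.62 and 4.70 CPM in KO 4, 5 and 6, against 9.82, 9.41 and 9.09 CPM in WT 1, 2 and 3. The WT libraries were nearly equal, and the highest KO library, KO 6, lay between the other KO libraries and WT. The mean of 3.08 ± 1.45 CPM in KO was 32.6% of the 9.44 ± 0.366 CPM in WT (SD, n = 3 each). The log2 change of -1.62 ± 0.33 (SE) was the lowest of the 34 members and missed the threshold in edgeR, with an adjusted p of 0.0580. Without KO 6 it was -2.07 and passed, with an adjusted p of 0.0451. The gene, at chr4:156199424-156200818, has no overlapping exon of another gene. Trim25 and Usp18, which act with it, did not pass. Trim25, a ligase for ubiquitin and ISG15, averaged 101.6 ± 19.1 CPM in KO and 112.6 ± 11.2 CPM in WT. Usp18, the protease that removes ISG15 and restrains the receptor, had 2.68, 3.13 and 6.78 CPM in KO 4, 5 and 6 and 4.04, 7.73 and 4.48 CPM in WT 1, 2 and 3, so that the groups overlapped.

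**Figure D2:**
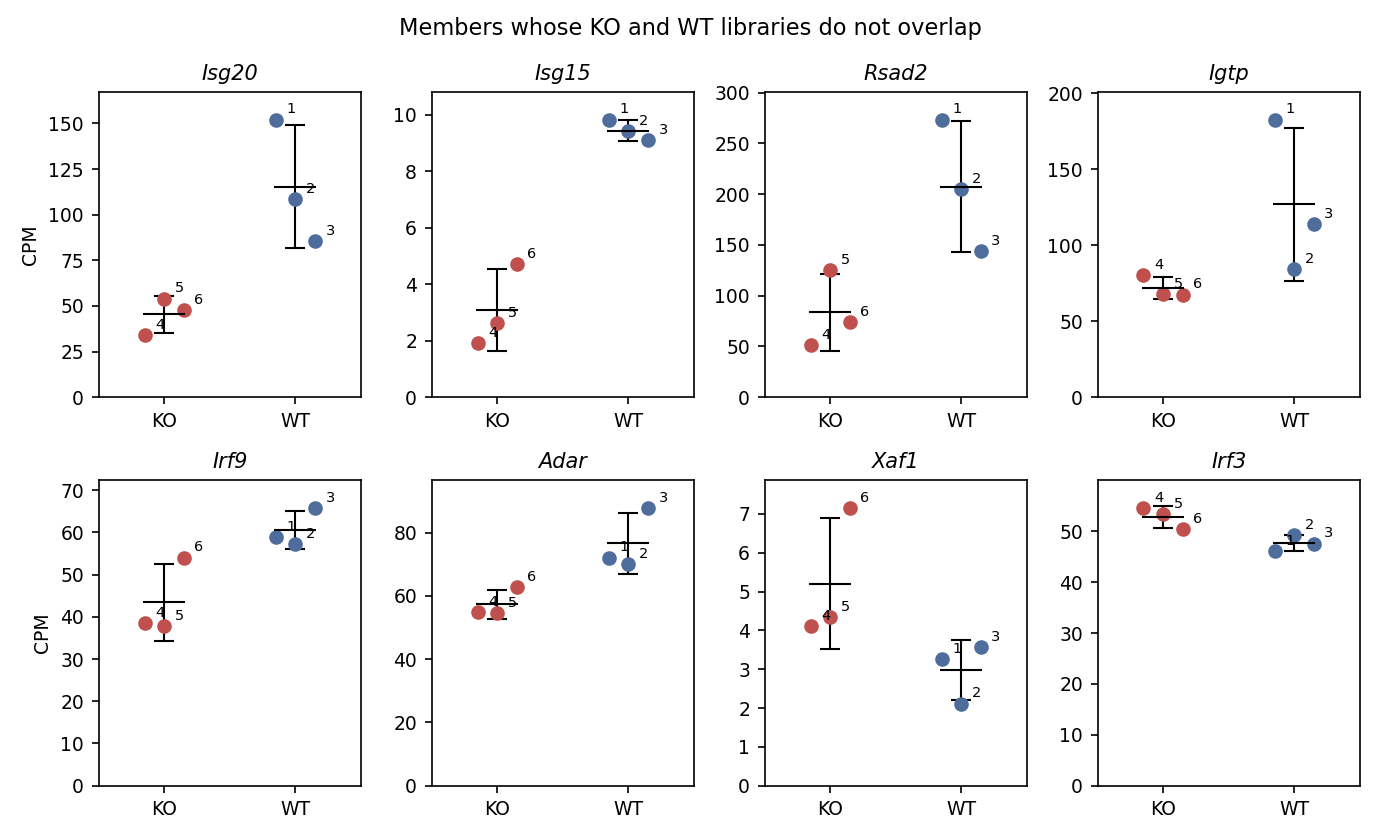
CPM (y axes, from 0) of the 8 genes whose KO and WT libraries do not overlap; points are libraries with their numbers, and bars are mean ± SD (n = 3 each). Isg20 lies between 34.1 and 53.9 CPM in KO and between 85.7 and 152 CPM in WT, and Xaf1 and Irf3 are the 2 that are higher in KO.

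The remaining antiviral effectors were Ifit1, Ifit2, Ifit3, Mx1, Mx2, Bst2 and Samhd1. Ifit proteins bind foreign RNA, Mx proteins are GTPases that trap viral particles, Bst2 tethers budding virions and Samhd1 degrades nucleotides. None of the 7 passed the test, and their KO and WT libraries overlapped. Samhd1, the most abundant of them, had 106, 97.6 and 91.4 CPM in KO 4, 5 and 6 and 97.2, 87.4 and 106 CPM in WT 1, 2 and 3. Ifit2 averaged 14.1 ± 2.21 CPM in KO and 14.2 ± 1.27 CPM in WT, and Bst2 averaged 10.4 ± 0.745 CPM in KO and 10.8 ± 1.27 CPM in WT (SD, n = 3 each). Ifit1, Ifit3, Mx1 and Mx2 had mean levels under 5 CPM over all libraries. Ifit and Mx genes have close copies in the genome, so their low counts also depend on how shared reads were assigned. Mx2 is annotated as a polymorphic pseudogene on GRCm38, and C57BL/6 mice are known to carry a defective Mx1.

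No sensor of viral RNA passed the test, and the libraries of all 3 overlapped between groups. Ddx58 (RIG-I) had 5.75, 8.37 and 14.2 CPM in KO 4, 5 and 6 and 7.49, 15.8 and 6.93 CPM in WT 1, 2 and 3. Its spread within each group was larger than the difference between their means, and its highest libraries were KO 6 and WT 2. Ifih1 (MDA5) averaged 17.5 ± 2.34 CPM in KO and 18.0 ± 1.41 CPM in WT, and Dhx58 (LGP2) averaged 3.55 ± 0.719 CPM in KO and 3.16 ± 0.421 CPM in WT (SD, n = 3 each).

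Of the transcription factors, Irf9, the DNA-binding part of the type I interferon complex, had 38.6, 37.8 and 54.0 CPM in KO 4, 5 and 6, against 58.9, 57.2 and 65.7 CPM in WT 1, 2 and 3. The groups did not overlap, with KO 6 closest to WT. Its log2 change of -0.48 ± 0.16 (SE) did not pass in edgeR, with an adjusted p of 0.188. Exons of Irf9 overlap those of Rnf31 on the same strand in GRCm38, so the 2 genes can share reads. Irf3, which is activated by RNA sensors to start interferon transcription, had 54.5, 53.4 and 50.4 CPM in KO 4, 5 and 6, against 46.1, 49.3 and 47.6 CPM in WT 1, 2 and 3. The gap was small, with a log2 change of 0.15 ± 0.07 (SE) and an adjusted p of 0.386 in edgeR. Irf7, which amplifies interferon transcription and is itself interferon-induced, had 6.67, 8.52 and 15.1 CPM in KO 4, 5 and 6 and 12.6, 12.5 and 12.8 CPM in WT 1, 2 and 3. KO 4 and KO 5 lay below all WT libraries and KO 6 above them. The log2 change of Irf7 was -0.32 with all libraries, -0.74 without KO 6 and -0.11 without KO 4, and it did not pass in any of these fits. Irf1, Irf2 and Stat2 overlapped between groups and did not pass. Irf2, which can repress the same promoters that Irf1 activates, averaged 35.6 ± 1.14 CPM in KO and 32.6 ± 3.71 CPM in WT (SD, n = 3 each).

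Enzymes that act on double-stranded RNA were next. Adar, which edits adenosines and so keeps the cell's own RNA from the sensors, had 54.9, 54.5 and 62.7 CPM in KO 4, 5 and 6, against 72.1, 70.0 and 87.7 CPM in WT 1, 2 and 3. The groups did not overlap, and the log2 change of -0.42 ± 0.11 (SE) had an adjusted p of 0.124 in edgeR and of 0.0420 in DESeq2. Eif2ak2 (PKR), the kinase that halts translation on double-stranded RNA, averaged 54.4 ± 6.51 CPM in KO and 57.3 ± 8.35 CPM in WT, with overlapping libraries. Oas1a, which makes oligoadenylate, a messenger of the antiviral response, had 2.36, 2.34 and 3.63 CPM in KO 4, 5 and 6 and 2.10, 3.25 and 2.20 CPM in WT 1, 2 and 3. The related Oasl1 and Oasl2 also overlapped between groups, and Oasl1 stayed under 1 CPM in every library.

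Among the interferon-inducible GTPases, Igtp (Irgm3), which guards the membranes around intracellular parasites, had 80.6, 67.9 and 67.5 CPM in KO 4, 5 and 6, against 183, 84.1 and 114 CPM in WT 1, 2 and 3. The KO libraries lay close together and below all WT libraries, and WT 1 stood high. The log2 change of -0.82 ± 0.27 (SE) had an adjusted p of 0.202 in edgeR. Without WT 2 it was -1.04 and passed, with an adjusted p of 0.0304, and without WT 1 it was -0.46, with an adjusted p of 0.385. Exons of Igtp overlap those of Irgm2 on the same strand. Irgm2, a GTPase of the same family, averaged 101.5 ± 17.1 CPM in KO and 261.9 ± 113 CPM in WT (SD, n = 3 each; adjusted p 0.0780 in edgeR), and the split of reads between the 2 genes is uncertain. Irgm1 had 27.9, 28.6 and 46.9 CPM in KO 4, 5 and 6 and 31.4, 34.1 and 32.7 CPM in WT 1, 2 and 3. The libraries of Irgm1 overlapped, with KO 6 the highest. Of the guanylate-binding proteins, Gbp2 averaged 2.77 ± 0.589 CPM in KO and 3.13 ± 1.20 CPM in WT. Gbp3 averaged 2.73 ± 0.371 CPM in KO and 3.19 ± 0.355 CPM in WT, and neither passed.

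Of the remaining members, Xaf1, which favours cell death by countering inhibitors of apoptosis, had 4.11, 4.34 and 7.15 CPM in KO 4, 5 and 6, against 3.26, 2.11 and 3.57 CPM in WT 1, 2 and 3. Each KO library was above each WT library, with KO 6 the highest. The log2 change of 0.80 ± 0.31 (SE) had an adjusted p of 0.258 in edgeR. It was 0.50 without KO 6 and 0.33 without KO 6 and WT 2. Parp9 and Parp14 are enzymes that attach ADP-ribose to proteins. Parp14 averaged 22.0 ± 4.53 CPM in KO and 18.2 ± 1.95 CPM in WT, and Parp9 averaged 23.0 ± 4.69 CPM in KO and 27.7 ± 2.92 CPM in WT (SD, n = 3 each). Neither passed. Ifi35, which binds the regulator Nmi, was level at 25.9 ± 1.31 CPM in KO and 26.1 ± 1.57 CPM in WT. Ifi44 had 2, 6 and 28 counts in KO 4, 5 and 6 and 5, 6 and 3 counts in WT 1, 2 and 3, too few to be tested.

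**Figure D3:**
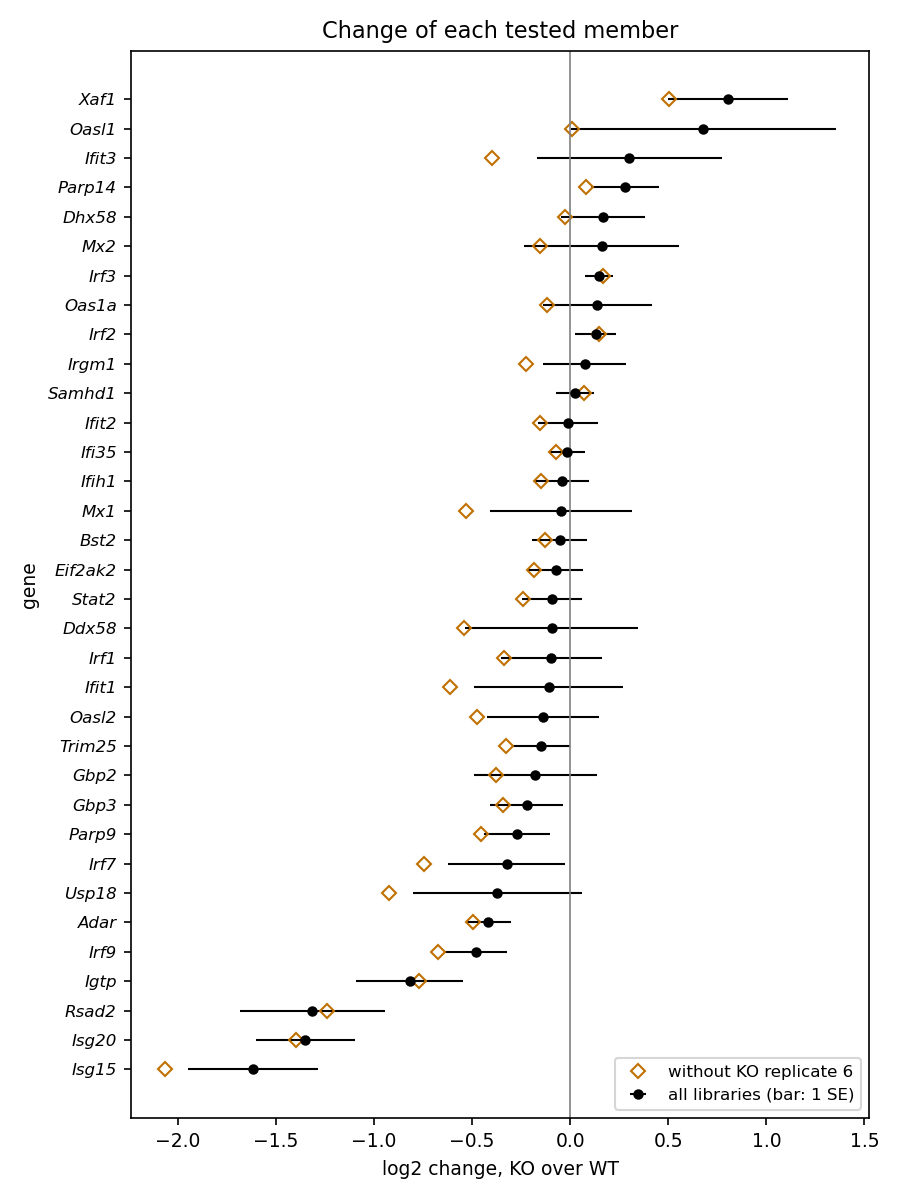
Log2 change, KO over WT (x axis), of each of the 34 tested members (y axis, ordered by change); black points are all libraries with 1 SE, and open diamonds are the fit without KO 6. Isg15, Isg20 and Rsad2 lie below -1 in both fits, and 28 of the 34 diamonds are below 0, against 23 of the 34 points.

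KO 6 and KO 4 stood at opposite ends of the KO libraries for many members. KO 6 was the highest KO library for 29 of the 35 members (82.9%), where it was highest for 39.1% of all tested genes. It was the highest of all 6 libraries for 15 members (42.9%), against 13.4% of all tested genes. KO 4 was the lowest KO library for 21 of the 35 members, where it was lowest for 36.7% of all tested genes. It was the lowest of all 6 libraries for 16 members, against 14.9% of all tested genes. The ratio of KO 6 to the mean of KO 4 and KO 5 had a median of 1.40 over the 34 tested members and 0.999 over all tested genes, and it was above 1.5 for 13 of the 34 (38.2%), against 16.3% of all tested genes. Most of these 13 averaged under 5 CPM. Ifit3 had 0.85, 0.93 and 2.52 CPM in KO 4, 5 and 6 and 0.93, 1.43 and 1.12 CPM in WT 1, 2 and 3. KO 6 was above all other libraries, while KO 4 and KO 5 were at the lower end of WT. Mx1 was also highest in KO 6, with 1.73, 1.46 and 3.44 CPM in KO 4, 5 and 6 and 1.86, 2.45 and 2.53 CPM in WT 1, 2 and 3. Ifit1 was at 0.98, 1.26 and 2.49 CPM in KO 4, 5 and 6 and 1.47, 1.65 and 1.99 CPM in WT 1, 2 and 3. Isg20, Rsad2, Igtp, Irf2, Irf3 and Samhd1 were the 6 that were not highest in KO 6 among the KO libraries.

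When KO 6 was left out, 15 of the 35 members were lower in both remaining KO libraries than in all WT libraries, where 14.3% of all tested genes were. These 15 were Isg20, Isg15, Rsad2, Igtp, Irf9, Adar, Ifit1, Mx1, Oasl2, Irf7, Usp18, Irgm1, Gbp3, Trim25 and Parp9. KO 6 was the highest KO library for 29 of the 35 members, so leaving it out tilts this count upward and the median log2 change downward. The excess over the share of all tested genes is thus no separate evidence that members were lower. Xaf1 and Irf3 were again the 2 that were higher without overlap, against 16.0% of all tested genes. The median log2 change of the tested members was then -0.33, against -0.09 over all tested genes. In that fit edgeR called 1 member, Isg15, lower, against 0.289% of all tested genes. Isg20 did not pass there (adjusted p 0.116 in edgeR). The shift of the median depended on which library was left out. With 1 other library left out, the median ran from -0.16 (without WT 1) to -0.0088 (without WT 2). Without WT 2, 17 members were below 0 and 17 above. Without KO 6 and WT 2 the median was -0.17, against 0.01 over all tested genes. With KO 6 and WT 2 both left out, edgeR called Isg15 and Irf9 lower, against 5.56% of all tested genes. KO 6 also had the highest hepatocyte and endothelial marker sums among the KO libraries, and WT 2 had the highest in WT. WT 2 was the highest WT library for 18 members (51.4%), against 36.9% of all tested genes. The part of these markers in the levels of KO 6 was not tested beyond adding the hepatocyte level to the fit as a covariate, with which edgeR called 6 members lower (Isg15, Isg20, Rsad2, Igtp, Irf9 and Adar) and 0 higher. In that fit 8.67% of all tested genes were called lower and 8.59% higher.

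**Figure D4:**
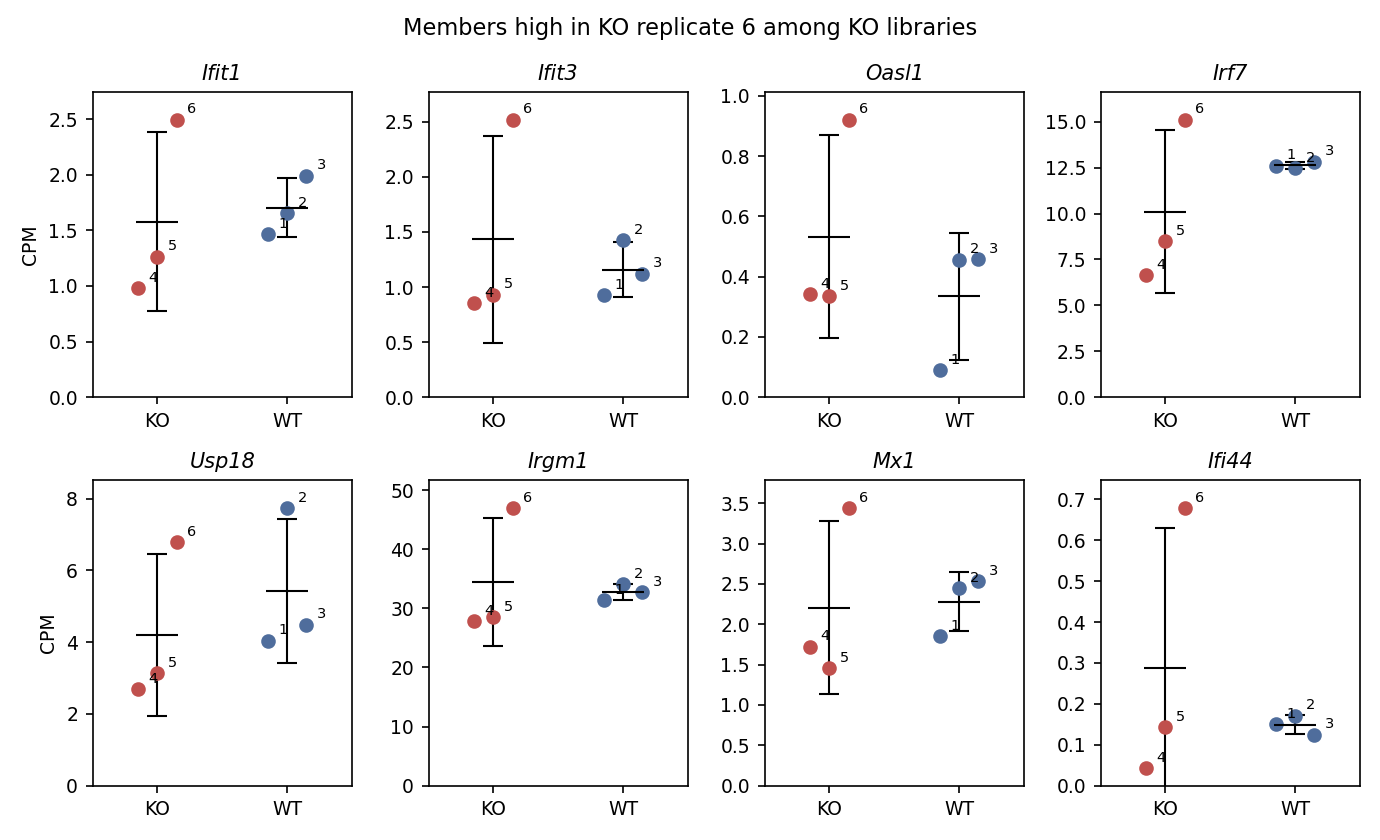
CPM (y axes, from 0) of 8 genes that were high in KO 6 among the KO libraries; points are libraries with their numbers, bars are mean ± SD (n = 3 each, cut at 0 for Ifi44). KO 4 and KO 5 lie together at or below the WT range for most of these genes, and KO 6 lies above it for all but Usp18.

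The marker lists of immune cells were followed in the same libraries. Macrophage markers, led by Lyz2 and Vcam1, summed to 600, 907 and 920 CPM in KO 4, 5 and 6 and 1002, 1336 and 660 CPM in WT 1, 2 and 3. Markers of plasmacytoid dendritic cells, the main producers of type I interferon, led by Tcf4 and Pld4 and including the member Bst2, summed to 89.1, 95.2 and 99.5 CPM in KO 4, 5 and 6 and 103, 121 and 94.1 CPM in WT 1, 2 and 3. Both sums overlapped between the groups. Gene by gene, 14 of 15 macrophage markers had a log2 change below 0 (median -0.16), none of them without overlap. Of the plasmacytoid dendritic cell markers, 9 of 10 were below 0 (median -0.34) and 3 were lower without overlap, against 10.9% of all tested genes. None of either list passed the test in edgeR. Endothelial markers, led by Stab2 and Cdh5, summed to 140, 140 and 299 CPM in KO 4, 5 and 6 and 115, 284 and 105 CPM in WT 1, 2 and 3. Erythroblast markers were lower without overlap for 7 of 10 genes, against 10.9% of all tested genes, and 1 of the 10, the transferrin receptor Tfrc, fell with an adjusted p of 0.0336 in edgeR. No gene of these lists was at 0 in all libraries, and their part in the members' results was not tested.

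Per kilobase of merged exons, Igtp was the most abundant member in KO, at 35.6 CPM per kb, followed by Isg20 at 24.4, Rsad2 at 19.3 and Trim25 at 17.7 CPM per kb. In WT, Igtp was at 62.8, Isg20 at 62.0, Rsad2 at 47.9 and Trim25 at 19.6 CPM per kb, followed by Ifi35 at 15.1, Irf3 at 13.9 and Isg15 at 12.5 CPM per kb. The order of the first 4 was the same in KO and in WT. The levels of Rsad2 and Trim25 in KO did not differ beyond their spread, and neither did those of Igtp and Isg20 in WT. Isg15, at 4.07 CPM per kb in KO, was 16th among the 35 in KO and 7th in WT. Ifi44, Oasl1, Mx2, Oasl2, Mx1, Ifit1, Ifit3 and Gbp3 were each under 1 CPM per kb in both groups.

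Intron reads, which come mostly from RNA not yet spliced, were listed for 34 of the 35 members (not Mx2), and 29 had enough of them to be tested. The edgeR quasi-likelihood test on introns called 0 of the 29 lower, against 0.483% of all tested genes, and 0 higher, against 0.237%. At an unadjusted p under 0.05, 4 were lower (Isg20, Rsad2, Igtp and Eif2ak2), against 5.45% of all tested genes, and 0 higher, against 5.39%. DESeq2 called 1 member lower on introns, Isg20 (adjusted p 0.00804), against 1.36% of all genes, and 0 higher, against 0.655%. Isg20 introns had 45.4, 90.4 and 74.1 CPM in KO 4, 5 and 6, against 105, 193 and 155 CPM in WT 1, 2 and 3. The groups did not overlap, and the intronic log2 change was -1.11 ± 0.30 (SE), with an adjusted p of 0.199 in edgeR. Rsad2 introns had 26.4, 74.1 and 44.0 CPM in KO 4, 5 and 6 and 71.0, 116 and 89.3 CPM in WT 1, 2 and 3, where KO 5 was above WT 1. Their log2 change was -0.94 ± 0.36 (SE), with an adjusted p of 0.394 in edgeR. Among the WT libraries, introns of both Isg20 and Rsad2 were highest in WT 2 and lowest in WT 1, an order unlike that of their gene counts. Igtp, lowest in WT 2 by gene counts, had intron levels of 161, 305 and 132 CPM in WT 1, 2 and 3. Ddx58, highest in WT 2 by gene counts, had 4.64, 3.91 and 12.6 CPM there. Irf2 was highest in WT 1 by both measures. Intron columns are assigned to libraries by name, and whether the WT names match the gene columns was not tested. The comparison of KO with WT over all libraries does not use the order within WT. Igtp introns had a log2 change of -0.73 ± 0.31 (SE). Isg15 has too few intron counts (2 to 7 per library) for a test.

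The difference between exonic and intronic change was tested directly. For Isg20 the exonic log2 change minus the intronic one was -0.20 ± 0.37 (SE), for Rsad2 -0.32 ± 0.33 and for Igtp -0.12 ± 0.49. Each of these 3 differences was smaller than its standard error. Of the 29 members 0 were called by edgeR, and 0 had an unadjusted p under 0.05. Over all 11100 genes tested 0 were called and 352 had an unadjusted p under 0.05. The fit pairs the exon and intron columns of a library by name, and this pairing was not tested for WT. Were the WT pairs wrong, the library terms would not match and differences could be missed. The lack of calls therefore does not show that exonic and intronic changes were equal.

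Other genes of the pathway, from a list of 89 drawn up with earlier results known, were counted beside the members. Of 87 tested, 1 rose (Mavs), 2 fell (Socs3 and Ube2l6) and 84 did not pass, so that 3.45% were called. Over all tested genes 1.83% were called higher and 1.45% lower, so the share in the list was near the background. The median log2 change of the list was -0.04. Ube2l6, the enzyme that passes ISG15 on to its targets, had 442, 519 and 438 CPM in KO 4, 5 and 6, against 941, 705 and 735 CPM in WT 1, 2 and 3. Its log2 change was -0.77 ± 0.15 (SE), with an adjusted p of 0.0496 in edgeR, so that it passed narrowly.

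Socs3, a feedback inhibitor of Jak kinases, had 5.05, 6.08 and 6.20 CPM in KO 4, 5 and 6, against 29.9, 24.2 and 23.6 CPM in WT 1, 2 and 3. No other pathway gene that passed fell as far, with a log2 change of -2.16 ± 0.15 (SE) and an adjusted p of 0.00563 in edgeR. Mavs, the mitochondrial adaptor that relays RIG-I and MDA5 signals, had 193, 195 and 171 CPM in KO 4, 5 and 6, against 118, 93.0 and 114 CPM in WT 1, 2 and 3. Its log2 change was 0.79 ± 0.11 (SE), with an adjusted p of 0.0249 in edgeR. On introns, edgeR also called Mavs higher (log2 change 1.28, adjusted p 0.00874) and Socs3 lower (log2 change -2.13, adjusted p 0.0357). Ube2l6 introns had a log2 change of -0.50 and did not pass, with an adjusted p of 0.163.

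No receptor or kinase of the list passed. Of these 9 genes, 1 was lower without overlap (Ifnar2), against 10.9% of all tested genes. Higher without overlap were 2 (Il10rb and Jak1), against 11.8%. Ifnar2 averaged 47.5 ± 2.61 CPM in KO and 56.4 ± 3.98 CPM in WT (adjusted p 0.217 in edgeR). Il10rb averaged 33.6 ± 2.62 CPM in KO and 24.9 ± 1.24 CPM in WT (adjusted p 0.0782 in edgeR). Jak1 averaged 241 ± 12 CPM in KO and 214 ± 12.3 CPM in WT (SD, n = 3 each), and the receptor chain Ifnar1 averaged 73.2 ± 4.52 CPM in KO and 78.1 ± 4.29 CPM in WT. Zc3hav1, an antiviral protein that binds viral RNA, averaged 252.5 ± 6.28 CPM in KO and 263.5 ± 21.2 CPM in WT. The interferons themselves were almost without reads: 15 of 19 ligand genes had 0 counts in all 6 libraries. Ifng had 0, 2 and 9 counts in KO 4, 5 and 6 and 0, 3 and 0 counts in WT 1, 2 and 3. This ligand list was chosen after the counts were seen.

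**Figure D5:**
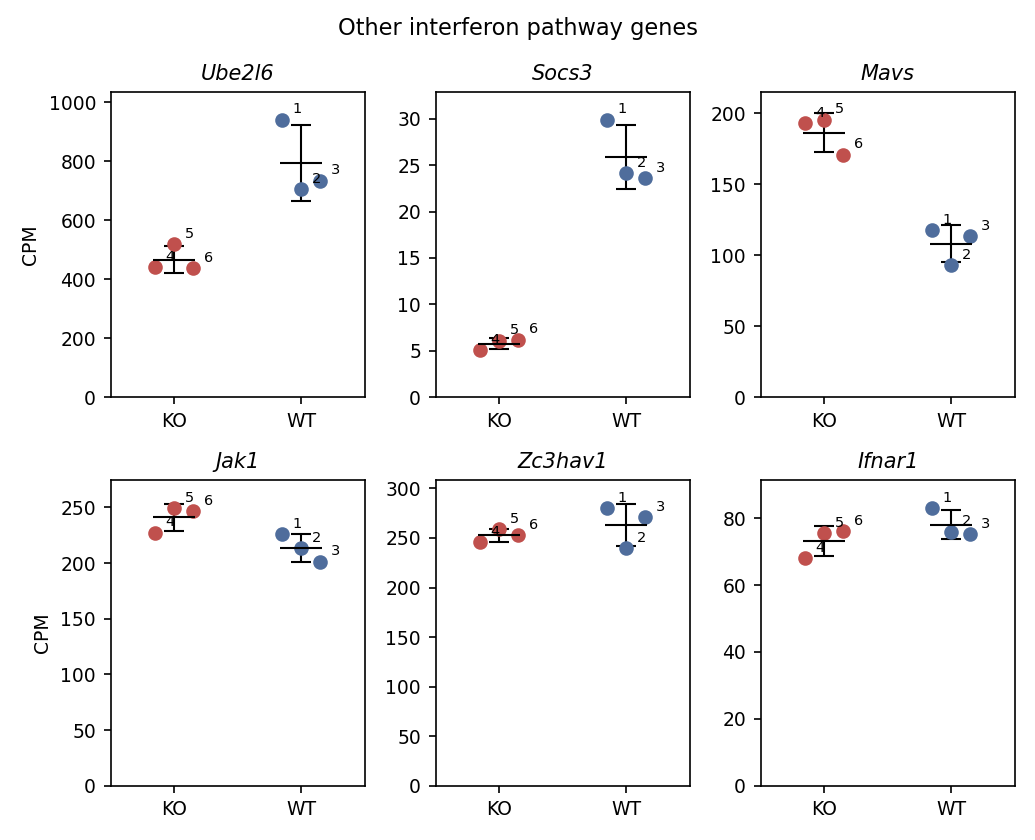
CPM (y axes, from 0) of 6 pathway genes outside the member list; points are libraries with their numbers, and bars are mean ± SD (n = 3 each). Ube2l6 and Socs3 are lower in all KO libraries, Mavs is higher in all, and Zc3hav1 and Ifnar1 overlap between KO and WT.

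The deleted microRNAs were matched against the members' 3′ untranslated regions. Their mature sequences, from RefSeq on GRCm38.p6, are printed 5′ to 3′ with the seed (bases 2 to 8) in capitals, because these letters set which messages a microRNA can pair with.
miR-144-3p: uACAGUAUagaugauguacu
miR-144-5p: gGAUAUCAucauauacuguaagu
miR-451a: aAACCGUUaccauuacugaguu
The 3 seeds differ from each other. No match to the miR-144-3p seed was found in the 35 members' longest 3′ untranslated regions, where 11.92% of 21020 genes have one. A miR-451a match was found in 1 member, Irf1, against 1.75% of those genes, and miR-144-5p matches in 2, Igtp and Ifi44, against 6.13%. The Irf1 and Igtp sites are shown with 10 bases on each side and the match in capitals.
Irf1, miR-451a site: ctcacctggaAACGGTTtggggctgaa
Igtp, miR-144-5p site: cccctattccTGATATCctgttttagc
Irf1 averaged 10.9 ± 2.71 CPM in KO and 11.7 ± 3.22 CPM in WT (SD, n = 3 each) and did not pass. Isg20, Isg15 and Rsad2 have no match to any of the 3 seeds, nor do Mavs, Ube2l6 and Socs3. A match is a description of the sequence, and no match says only that these letters are not in this region.

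By position, 7 of the 35 members lie on chromosome 11, which also carries the deleted locus at chr11:78073010-78073207 (GRCm38.p6). Xaf1 is the nearest, 5.8 Mb away, followed by Trim25 at 10.9 Mb and Igtp at 19.9 Mb. The others, Dhx58, Ifi35, Irf1 and Irgm1, lie 22.6 to 29.2 Mb away. Isg20, Isg15 and Rsad2 are on chromosomes 7, 4 and 12. In all, 14 members have an exon that overlaps an exon of another gene in GRCm38, 3 of them on the same strand (Irf9, Igtp and Parp14). How reads in such overlaps were counted is not given in the sources used here, so counts may hold reads of the neighbour or lack reads. For overlaps on opposite strands this also depends on the strand setting, which is not given either.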

How the data were processed

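The deposited data were 2 tables of unnormalized counts made by the authors, a gene table and a table of exon and intron counts. Per the submitters' processing notes, STAR and HTSeq were used, with the builds NCBIM37 and mm10 named. The annotation and build of each table, the strand setting and the definition of introns were not given in the sources used here. Globin and mitochondrial genes had been removed, per the deposited file's name, and 0 such symbols were found. The exon counts equal the gene counts for 15543 of 15543 shared genes. Replicates differed by more than sampling noise (chi-square per degree of freedom 16.7 to 157).

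Counts were tested KO against WT with edgeR 4.0.16 (R 4.3.3) on all genes: TMM scaling, filterByExpr (minimum count 10, minimum total 15), the two-sided quasi-likelihood test and Benjamini-Hochberg adjustment, with a threshold of 0.05. Standard errors were derived from the F statistic. Exonic and intronic changes were compared in 1 fit with a term per library, pairing columns by the library number in their names. CPM per kb uses merged exons of GENCODE M21 (GRCm38). Scripts were tested on simulated data. DESeq2 1.42.0, other size factors, no filter, leaving out libraries and a hepatocyte covariate were alternatives.

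The members and lists were chosen with earlier results of these data known. Every member was to be reported, in full where it passed the test or had the largest level or widest spread within its role. Of other pathway genes, those called and the 3 of highest level were to be named, and of each marker list the 2 of highest level. Members whose KO and WT libraries do not overlap and those high in KO 6 are given beyond that rule. So are Irgm2, Ifnar1, Ifnar2 and Il10rb, and all of these were chosen after their values were seen. Some list genes are not reported here and are left out of the pathway counts.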

Additional observations from a re-analysis of the deposited data

How the results depend on the processing

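No paired analysis was possible because the 2 groups share no replicate number (4 to 6 in KO, 1 to 3 in WT). Of 374 values recomputed under an alternative, 318 kept their direction and side of the threshold, 6 lost the call, 13 gained it and 37 turned direction. Members called lower numbered 1 with all libraries, 0 to 2 with 1 library left out, 5 with DESeq2, 2 without KO 6 and WT 2, and 6 with the hepatocyte covariate; members called higher numbered 0 throughout.

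Over all genes, 276 were called higher and 219 lower. With 1 library left out these were 5 to 483 and 7 to 1012, with DESeq2 543 and 501, without KO 6 and WT 2 580 and 838, and with the covariate 1297 and 1310. On exon counts 191 and 137 were called (2 to 383 and 0 to 887 with 1 library left out). On introns 28 and 57 were called (4 to 27 and 6 to 121 with 1 library left out; 88 and 182 with DESeq2). The exonic change was called above the intronic for 0 to 44 genes and below it for 0 to 106 with 1 library left out, the highest without WT 3. Exon and intron columns were dropped by name in these fits. Where a WT name did not match, unlike libraries would be left out of exons and of introns. The causes were not tested.

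With 1 library left out, log2 changes ran from -0.61 to 0.13 (Ifit1), -0.15 to 0.0616 (Ifit2), -0.40 to 0.55 (Ifit3), -0.53 to 0.16 (Mx1), -0.16 to 0.51 (Mx2), -0.47 to 0.0588 (Oasl2), -0.12 to 0.37 (Oas1a), -0.34 to 0.14 (Irf1), -0.24 to 0.005 (Stat2), -0.15 to 0.0451 (Ifih1), -0.54 to 0.39 (Ddx58), -0.0262 to 0.27 (Dhx58), -0.13 to 0.0481 (Bst2), -0.0699 to 0.0286 (Ifi35), -0.23 to 0.19 (Irgm1), -0.38 to 0.18 (Gbp2), -0.19 to 0.0135 (Eif2ak2) and -0.0431 to 0.0942 (Samhd1). Direction also turned for Ifit2 with DESeq2 (0.0008) and without the filter (0.0274), for Ifi35 without the filter (0.0233), and, without KO 6 and WT 2, for Ifi35 (0.0096), Ifit3 (-0.17), Bst2 (0.0111), Irgm1 (-0.16) and Gbp2 (0.0307). At the depth of these libraries 13 members averaged under 5 CPM, which limits the precision of their changes.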
